A study of Mus musculus with 9 samples.

Results

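The genes described here were higher than in unstimulated cells both after 6 h of lipopolysaccharide (LPS) and again after a further 90 h without it. They were measured on Affymetrix mouse arrays in m-ICcl2 cells, a small intestinal epithelial line of C57BL/6 origin, derived from fetal tissue, that carries the SV40 large T antigen as a transgene. The line is a single immortalised one, and all 3 conditions share its transgene. Cells were left unstimulated, given LPS of E. coli at 100 ng/mL for 6 h, or given the same 6 h of LPS and then kept for 90 h in medium without LPS, with 3 arrays for each condition. The last condition carries the label tolerant and ended 96 h after the first contact with LPS; it is called the LPS-free time below. No time in culture is given for the unstimulated cells, so the LPS pulse and time in culture cannot be told apart at the LPS-free time.

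Members were chosen by their values. A gene entered if its mean log2 intensity was at least 1 above unstimulated, that is at least doubled, both at 6 h and at the LPS-free time, and if both differences were above 0 in all 3 pairs of arrays with the same replicate number. Of 18193 genes with a probe set of their own, 9431 reached log2 4 on at least 3 of 9 arrays, and 137 of these were members, or 1.45%. Both differences are taken from the same unstimulated arrays. Another 69 genes passed both mean thresholds but failed the condition on pairs. The same limits at 6 h alone took 216 genes, 2.29% of those tested, of which the members were 63.4%, and at the LPS-free time alone 933 genes (9.89%), of which they were 14.7%. Because the differences from unstimulated cells chose the members, they are given below as a description with no test. At 6 h, replicate 3 stood apart: most members differed from unstimulated by far less in that pair than in the other pairs. The rule took 368 genes without 6 h LPS replicate 3 and 407 without unstimulated replicate 3. Just inside the 6 h threshold lay Ddx50, Mid2 and Zfp871, with differences of 1.00, 1.00 and 1.01, and just outside it lay Cep43, Cd2ap and Skil, each at 1.00 when rounded and below 1 as measured. At the LPS-free threshold the nearest members were Ncl, Cenpj and Manea (1.01, 1.02 and 1.03) and the nearest genes outside were Setd7, Smc3 and Slk (1.00, 0.96 and 0.96).

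LPS is sensed by the receptor TLR4 with its partners MD-2 and CD14. Through adaptor proteins and the kinases TAK1 and IKK the signal releases NF-kappa-B, a transcription factor that binds kappa-B sites in promoters and raises chemokine genes within hours. The same factor raises its own brakes, such as the ubiquitin-editing enzyme A20. Cells that have met LPS once often answer a further dose less strongly, which is called tolerance. Intestinal epithelium is known for this state, since it lives beside bacteria.

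The 4 promoters below belong to the 4 members with the largest difference at 6 h that have an entry in the RefSeq promoter table, and they are shown because chemokine genes and the gene of A20 are textbook NF-kappa-B targets. Where the table lists 2 starts for a gene (Casp4 and Tnfaip3), the start with more matches is shown. Each is the 250 bases before the gene's start in GRCm38.p6, read 5′ to 3′ on the gene's strand: chr5:90903649-90903898 on the plus strand for Cxcl2, chr5:90890995-90891244 on the plus strand for Cxcl1, chr9:5308599-5308848 on the plus strand for Casp4 and chr10:19015411-19015660 on the minus strand for Tnfaip3. Capitals mark matches to the kappa-B-like motif GGGNNTTTCC on either strand.
Cxcl2: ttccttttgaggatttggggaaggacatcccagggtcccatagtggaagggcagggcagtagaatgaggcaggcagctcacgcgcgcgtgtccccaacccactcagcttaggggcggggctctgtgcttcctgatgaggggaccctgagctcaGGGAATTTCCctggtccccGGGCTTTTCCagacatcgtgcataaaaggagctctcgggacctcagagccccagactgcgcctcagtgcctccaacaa
Cxcl1: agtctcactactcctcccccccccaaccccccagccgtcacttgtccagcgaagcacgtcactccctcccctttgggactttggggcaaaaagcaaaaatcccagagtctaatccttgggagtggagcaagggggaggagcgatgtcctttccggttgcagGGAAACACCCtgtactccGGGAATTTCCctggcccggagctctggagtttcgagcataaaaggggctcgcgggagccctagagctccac
Casp4: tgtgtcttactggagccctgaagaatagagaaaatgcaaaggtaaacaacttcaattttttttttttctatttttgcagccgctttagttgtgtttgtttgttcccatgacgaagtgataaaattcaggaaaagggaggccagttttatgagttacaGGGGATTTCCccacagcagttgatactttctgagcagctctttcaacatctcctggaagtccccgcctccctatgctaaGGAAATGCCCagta
Tnfaip3: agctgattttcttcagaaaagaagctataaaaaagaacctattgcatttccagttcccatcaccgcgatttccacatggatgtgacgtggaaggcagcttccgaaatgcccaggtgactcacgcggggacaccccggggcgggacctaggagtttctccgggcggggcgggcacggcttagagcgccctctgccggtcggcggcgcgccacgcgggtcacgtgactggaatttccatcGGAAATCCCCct

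Cxcl2, Cxcl1 and Casp4 each held 2 matches and Tnfaip3 held 1. The match GGGAATTTCC, which Cxcl1 and Cxcl2 share, began 71 bases before the start of Cxcl1 and 97 bases before that of Cxcl2. The pair lies on chromosome 5, Casp4 on chromosome 9 and Tnfaip3 on chromosome 10. Over windows of 300 bases, from 250 before to 50 after the start, the motif was found in 7 of the 108 members in the table, or 6.48% of them. It was found in 1.96% of the 7776 tested genes in the table and in 1.63% of all 32851 windows. The other members with a match were Dmxl2, Nop58 and Plk4. A match is a run of letters and not a measured binding site.

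Transcripts of 3 chemokines, Cxcl1, Cxcl2 and Ccl2, led the members at 6 h and kept part of that difference at the LPS-free time. Chemokines are secreted proteins that draw leukocytes, the first pair acting on neutrophils and Ccl2 on monocytes. Log2 levels of Cxcl1 were 7.38, 7.62 and 7.36 on the unstimulated arrays, 11.65, 11.33 and 11.71 at 6 h, and 9.42, 9.59 and 9.80 at the LPS-free time. The 3 groups did not overlap, and the LPS-free arrays lay about midway on the log2 scale. In folds of the means Cxcl1 was 17.3 times unstimulated at 6 h and 4.45 times at the LPS-free time.

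Cxcl2 had log2 levels of 3.43, 2.86 and 3.52 on the unstimulated arrays, 7.42, 7.42 and 7.87 at 6 h, and 5.31, 5.70 and 5.72 at the LPS-free time. Since its unstimulated arrays all lay below log2 4, where the deposited values crowd near a floor, its folds are lower bounds against log2 4: at least 11.9 at 6 h and at least 2.98 at the LPS-free time. Ccl2 had log2 levels of 3.22, 3.34 and 3.66, then 7.41, 7.80 and 7.78, then 6.30, 6.71 and 6.90, with bounds of at least 12.7 and at least 6.21. Both genes were separated between all 3 conditions without overlap.

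The step from 6 h to the LPS-free time is the comparison on which the rule set no condition. The LPS-free threshold still keeps out genes that went back to the unstimulated level. The step was tested with limma over all 9431 tested genes, with Benjamini-Hochberg adjustment. Of the 137 members 3 fell, all of them chemokines, and 8 rose, against 6.02% of all tested genes that fell and 7.10% that rose. Cxcl2 fell 3.99-fold (SE 0.23 log2; adjusted p = 0.000837), Cxcl1 3.90-fold (log2 difference -1.96 ± 0.18, SE; adjusted p = 0.000247) and Ccl2 2.04-fold (-1.03 ± 0.21; adjusted p = 0.0139). Without 6 h LPS replicate 2 the fall of Ccl2 lay just past the threshold (adjusted p = 0.0502).

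**Figure D1:**
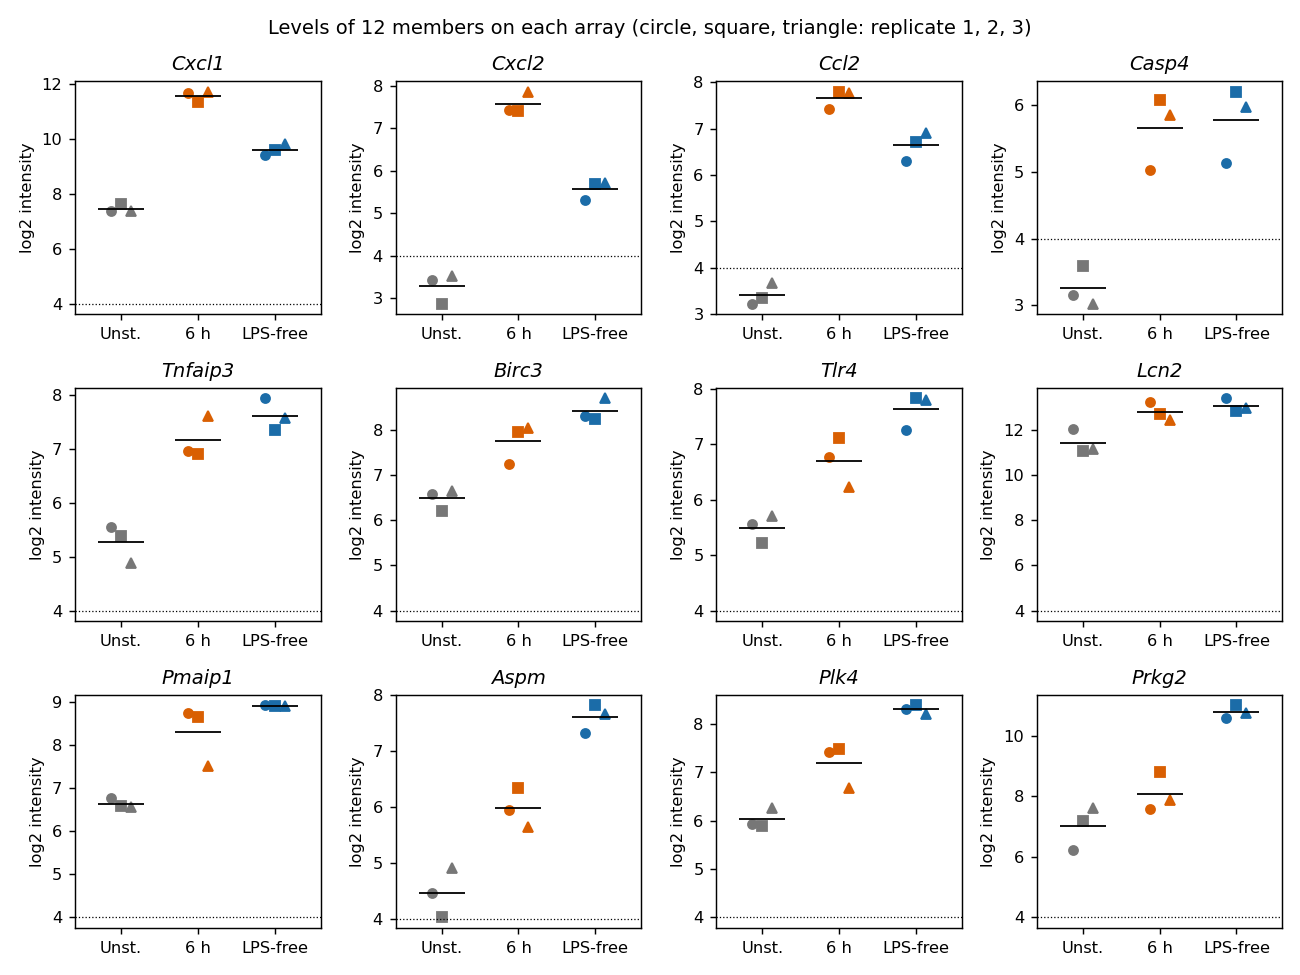
Log2 intensity of 12 members on each array, with circles, squares and triangles for replicates 1, 2 and 3, bars for the mean of 3 arrays and the dotted line at log2 4. Cxcl1, Cxcl2 and Ccl2 peak at 6 h, Casp4, Tnfaip3 and Lcn2 have overlapping arrays at 6 h and at the LPS-free time, and Aspm, Plk4 and Prkg2 are highest at the LPS-free time.

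Besides the chemokines, intracellular LPS sensing and NF-kappa-B feedback were represented. Casp4 encodes caspase-11, the mouse caspase that binds LPS in the cytosol. Its log2 levels were 3.15, 3.59 and 3.02 on the unstimulated arrays, 5.03, 6.08 and 5.86 at 6 h, and 5.14, 6.21 and 5.98 at the LPS-free time. The 6 h and LPS-free arrays overlapped, with replicate 1 lowest in both, and the bounds over unstimulated were at least 3.15-fold and at least 3.42-fold. Between these conditions the log2 difference was 0.12 ± 0.35 (SE; adjusted p = 0.878).

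Tnfaip3, the gene of A20, had log2 levels of 5.54, 5.39 and 4.88, then 6.96, 6.90 and 7.60, then 7.93, 7.34 and 7.57. It was thus 3.69-fold above unstimulated at 6 h and 5.07-fold at the LPS-free time, with arrays of the 2 LPS conditions overlapping (0.46 ± 0.26, SE; adjusted p = 0.313). Its other probe set, which also passed the level minimum, differed from unstimulated by 0.89 and 1.22 log2.

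Birc3, an inhibitor of apoptosis protein that ubiquitinates partners of the TNF receptor, had log2 levels of 6.58, 6.21 and 6.66, then 7.25, 7.94 and 8.05, then 8.32, 8.24 and 8.70. The groups did not overlap. The further difference of 0.67 ± 0.25 log2 from 6 h to the LPS-free time did not pass (adjusted p = 0.120), and it passed with the replicate number as a block (adjusted p = 0.0327).

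Tlr4 itself was a member, with log2 levels of 5.56, 5.23 and 5.71, then 6.76, 7.12 and 6.22, then 7.26, 7.83 and 7.81. All LPS-free arrays lay above all 6 h arrays, and the difference between them of 0.93 ± 0.27 log2 was near the threshold (adjusted p = 0.0523, or 0.0277 with the block). The 2 other probe sets of Tlr4 at the level minimum differed from unstimulated by 0.64 and 1.11 log2 at 6 h and by 2.26 and 1.55 at the LPS-free time. Tab3, an adaptor of the kinase TAK1, was 2.17-fold and 2.81-fold above unstimulated.

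Lcn2, which encodes lipocalin 2, a protein that withholds iron from bacteria by binding their siderophores, was among the members. Its log2 levels were 12.06, 11.07 and 11.17 on the unstimulated arrays, 13.23, 12.70 and 12.46 at 6 h, and 13.40, 12.86 and 12.99 at the LPS-free time. Both LPS conditions lay above unstimulated without overlap, and they overlapped each other (0.29 ± 0.31 log2, SE; adjusted p = 0.615).

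Il13ra1 and Socs2 rose further from 6 h to the LPS-free time. Il13ra1, a receptor chain for interleukin-13 and interleukin-4, had mean log2 levels of 6.42 ± 0.18, 7.65 ± 0.12 and 8.62 ± 0.25 (SD, n = 3) in the 3 conditions in time order. It rose 1.96-fold from 6 h to the LPS-free time (adjusted p = 0.00851). Socs2, a suppressor of cytokine and growth hormone signalling, stood at 5.70 ± 0.26, 6.85 ± 0.38 and 8.18 ± 0.08 and rose 2.51-fold (adjusted p = 0.00518). Edn1, the gene of the peptide endothelin-1, stood at 8.13 ± 0.40, 9.41 ± 0.48 and 9.43 ± 0.37, with nearly the same mean at both LPS conditions (difference 0.02 ± 0.31, SE). Rc3h1, the gene of roquin-1, a protein that marks inflammatory transcripts for decay, was 2.26-fold and 2.13-fold above unstimulated at the 2 times and did not pass between them (adjusted p = 0.903).

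Most of the 137 members have other roles. Hand-made groups, drawn up after the members were known, put 15 in innate immunity and secreted signals, 21 in chromatin and transcription, and 15 each in RNA splicing, processing and helicases and in membrane traffic, organelles and autophagy. A further 13 act in mitosis, DNA replication and repair, 11 are kinases, phosphatases or GTPase regulators, and 10 each belong to ubiquitin-type modifiers with the proteasome and to ion transport, lipids and metabolism. Another 9 act in ribosome biogenesis, translation and nuclear transport, 4 in cell death and the p53 pathway, and 14 were left without a role. No comparison of these groups was tested.

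In the group of mitosis and genome maintenance, Aspm and Plk4 went on to higher levels. Of the 13 in this group 2 passed as rises and 9 had the higher mean at the LPS-free time, against 8 and 107 of all 137 members. Over all 9431 tested genes 7.10% passed as rises, and 4795 genes had the higher mean at the LPS-free time. Aspm, a spindle pole protein gene, had log2 levels of 4.46, 4.03 and 4.91, then 5.94, 6.35 and 5.64, then 7.33, 7.82 and 7.67. It did not overlap between conditions and rose 3.10-fold from 6 h to the LPS-free time (1.63 ± 0.27 log2, SE; adjusted p = 0.00522, or 0.0783 when all its probe sets were averaged). Plk4, the kinase that starts centriole duplication, had log2 levels of 5.94, 5.89 and 6.27, then 7.43, 7.48 and 6.67, then 8.31, 8.39 and 8.21. It rose 2.16-fold in the same step (adjusted p = 0.0150, or 0.0606 without LPS-free replicate 2), and its 2 other probe sets differed by 1.21 and 1.11 log2. Ttk, a spindle checkpoint kinase, and Chek1, a DNA damage checkpoint kinase, were higher by 1.08 and 0.51 log2 and passed only with the block (adjusted p = 0.0211 and 0.0243, against 0.0867 and 0.332 without it). Rad50 and Smc6, both of DNA repair complexes, were 1.18 and 1.33 log2 above unstimulated at 6 h and both 1.03 at the LPS-free time.

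Signalling genes held the member with the largest difference at the LPS-free time. Prkg2, a cyclic GMP-dependent protein kinase of the intestinal epithelium known for its part in chloride secretion, had log2 levels of 6.24, 7.19 and 7.61, then 7.57, 8.80 and 7.87, then a mean of 10.77 ± 0.22 (SD, n = 3) with a lowest array of 10.57. Unstimulated and 6 h arrays overlapped, whereas the LPS-free arrays stood clear of both. Its mean was 2.10-fold above unstimulated at 6 h and 13.5-fold at the LPS-free time, and the step between them was a 6.45-fold rise (2.69 ± 0.40 log2, SE; adjusted p = 0.00308). A second probe set of Prkg2 at the level minimum differed from unstimulated by 1.11 and 3.67 log2. Frk, a Src-related tyrosine kinase of epithelia, went the other way in its means, with log2 levels of 7.29, 7.22 and 7.28, then 9.30, 9.39 and 8.36, then 8.27, 8.68 and 8.37 (-0.58 ± 0.27 log2, SE; adjusted p = 0.208). Rictor, a defining subunit of the kinase complex mTORC2, was 2.68-fold and 4.05-fold above unstimulated.

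Other rises from 6 h to the LPS-free time were those of Mab21l3 (2.21-fold; adjusted p = 0.00520), Heca (2.58-fold; adjusted p = 0.0231) and Eea1 (adjusted p = 0.0315). Eea1, a tether of early endosomes, had log2 levels of 3.15, 2.76 and 2.62, then 4.93, 4.65 and 3.09, then 5.58, 6.05 and 6.25. All of its unstimulated arrays and 1 of its 6 h arrays lay below log2 4, so that against log2 4 it was at least 1.17-fold higher at 6 h and at least 3.89-fold higher at the LPS-free time. Its rise from 6 h was 1.73 log2 as deposited and 1.43 log2 (adjusted p = 0.00805) with values below log2 4 set to log2 4. The calls of Heca and Eea1 were lost without LPS-free replicate 2 (adjusted p = 0.0906 and 0.0979) and without LPS-free replicate 3 (0.0686 and 0.108). That of Heca was also lost without 6 h LPS replicate 3 (adjusted p = 0.0570), and that of Eea1 without unstimulated replicate 2 (0.0551) or LPS-free replicate 1 (0.0538). With no filter on low levels neither passed (adjusted p = 0.0751 for Heca and 0.111 for Eea1), which left 6 rises, and in a fit of the 2 compared conditions alone Eea1 did not pass (0.0743).

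Cell death genes formed a small group. Pmaip1, the gene of the death-promoting protein Noxa, had log2 levels of 6.77, 6.59 and 6.57, then 8.76, 8.65 and 7.52, then 8.93, 8.92 and 8.91. All LPS-free arrays lay above all 6 h arrays, with 6 h LPS replicate 3 about 1 log2 below its fellows (0.61 ± 0.30 log2, SE; adjusted p = 0.234). Xiap, an inhibitor of caspases, stood at mean log2 levels of 8.04 ± 0.31, 9.15 ± 0.67 and 9.11 ± 0.12 (SD, n = 3). Trp53inp1 and Mdm4, a p53 target and an inhibitor of p53, were 2.74-fold and 2.66-fold above unstimulated at 6 h and 2.12-fold and 3.26-fold at the LPS-free time. The cells carry large T antigen, which binds p53.

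The 15 RNA processing genes had median log2 differences from unstimulated of 1.17 at 6 h and 1.29 at the LPS-free time. Prpf4b, a kinase of splicing factors, led them at both times with 1.34 and 1.96, and Clk1, another such kinase, stood at 1.60 at the LPS-free time. Ddx3x, an RNA helicase gene, had log2 levels of 10.82, 10.53 and 11.03, then 12.37, 12.26 and 11.06, then 11.93, 11.94 and 11.82. Its 6 h LPS replicate 3 lay at the unstimulated level. In the 9 genes of ribosome biogenesis, translation and nuclear transport the medians were 1.05 and 1.42, led by Nop58, a nucleolar protein gene, at 6 h and by Ipo7, an import receptor gene, at the LPS-free time. Nop58 had log2 levels of 6.47, 7.18 and 7.38, then 8.99, 8.94 and 7.86, then 7.60, 8.71 and 8.24, so that its LPS conditions overlapped. Xpo1, the main export receptor gene, differed by 1.05 and 1.86. Ipo7 had log2 levels of 8.77, 8.87 and 9.43, then 10.92, 10.76 and 9.44, then 11.49, 11.42 and 11.25 (1.01 ± 0.37 log2 from 6 h on, SE; adjusted p = 0.111).

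The 21 genes of chromatin and transcription had medians of 1.11 and 1.25, and included Tet2, a DNA demethylating enzyme gene. Its difference of 1.51 at 6 h rests in part on 1 of 3 unstimulated arrays below log2 4, and its other probe set differed by 0.82 and 0.52. Kdm7a, a histone demethylase gene, was largest at the LPS-free time (2.29), and Nfat5, the transcription factor of the osmotic stress response, differed by 1.21 and 2.02. Suz12, a core subunit of the Polycomb complex PRC2, differed by 1.06 and 1.18. In the 15 genes of membrane traffic the medians were 1.14 and 1.58. Rb1cc1, a subunit of the complex that starts autophagy, differed by 1.46 and 1.22, and Appl1, an endosomal adaptor, by 1.14 and 1.58. Ubiquitin-type modifiers had medians of 1.15 and 1.40, and ion transport and metabolism 1.14 and 1.28, including Slc12a2, the basolateral sodium-potassium-chloride cotransporter of secretory epithelia (1.09 and 1.16). Over these 4 groups no member passed the limma test from 6 h to the LPS-free time except Eea1. With the replicate number as a block Kdm7a, Mid2 and Ktn1 also rose.

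**Figure D2:**
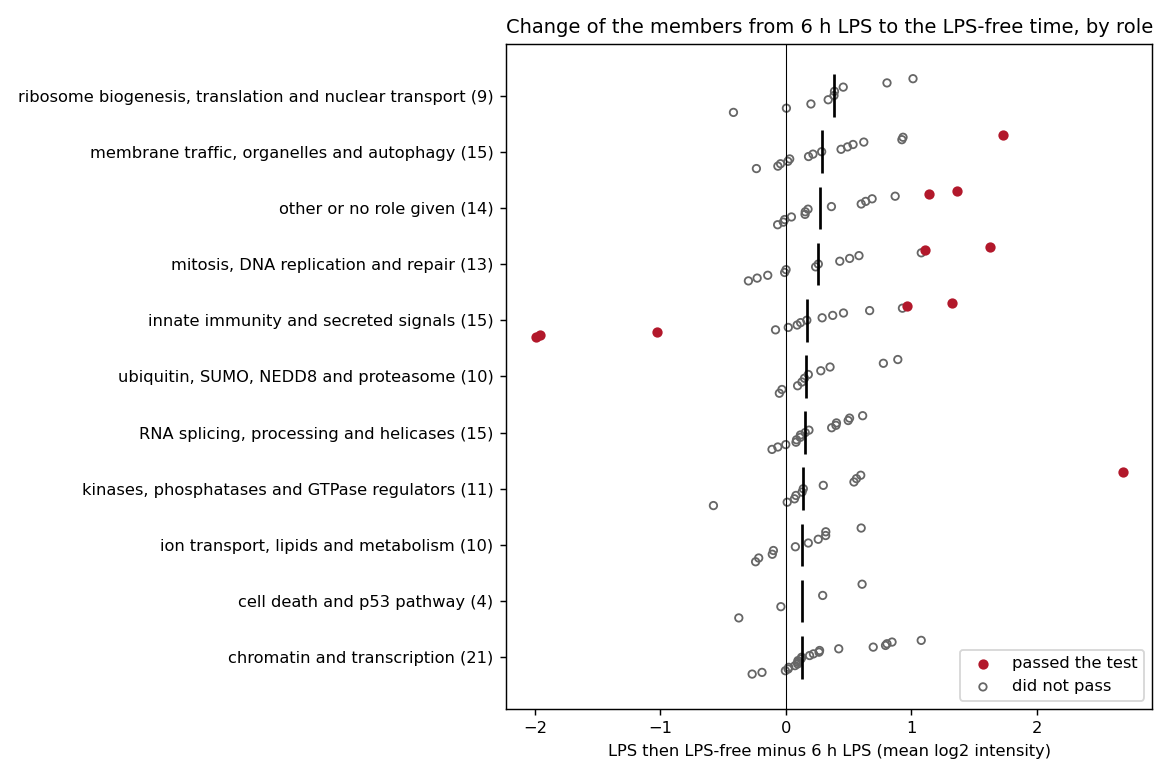
Log2 difference of each member between the LPS-free time and 6 h of LPS, by role group with its number of members, with a bar at the group's median and filled points for the 11 members that passed the limma test. The 3 falls that passed are Cxcl1, Cxcl2 and Ccl2, all in the innate immunity group.

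The replicates did not show the 6 h difference alike. In the same-numbered pairs the median log2 difference of the members at 6 h was 1.47 in replicate 1, 1.73 in replicate 2 and 0.32 in replicate 3. Over all tested genes these medians were -0.18, -0.18 and 0.03. At the LPS-free time the members' medians were 1.39, 1.70 and 1.18. In replicate 3 the 6 h difference was at least 1 for 15 members and below 0.5 for 89, whereas it was at least 1 for 126 members in replicate 1 and for 134 in replicate 2. The members' median log2 level was 6.33, 6.47 and 6.71 on the unstimulated arrays and 7.81, 8.06 and 7.38 at 6 h, in replicate order. In replicate 3 the unstimulated array was thus the highest of its condition and the 6 h array the lowest.

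**Figure D3:**
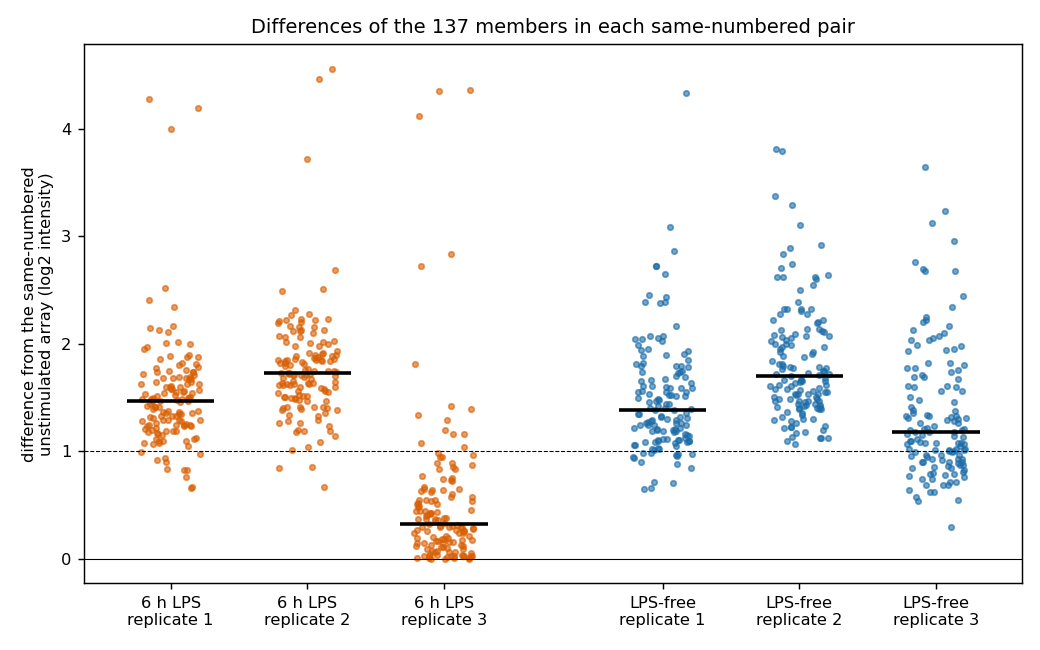
Log2 difference of each of the 137 members from the same-numbered unstimulated array at 6 h of LPS and at the LPS-free time, with a bar at the median and a dashed line at 1. Most members lie below 1 in replicate 3 at 6 h, with a median of 0.32, while Cxcl1, Cxcl2 and Ccl2 lie above 4 there.

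By role, 9 of the 15 members with a 6 h difference of at least 1 in replicate 3 belonged to innate immunity and secreted signals, a group whose median there was 1.29. In the other groups that median lay between 0.24 and 0.58. The rule used these replicate 3 differences, and the groups were made by hand after the members were known. The innate immunity group also held the largest mean differences at 6 h, so the count is a description only. Named after their values were seen, 9 members differed by at least 1 log2 from unstimulated in all 6 pairs: Cxcl1, Cxcl2, Ccl2, Casp4, Tnfaip3, Lcn2, Edn1, Rictor and Ap4e1, the last a subunit of an adaptor complex of membrane traffic. Of all members, 128 had their 6 h arrays all above the unstimulated ones, and 131 their LPS-free arrays. Among all tested genes this held for 12.9% and 22.6%, and since the rule used these contrasts nothing is read from it.

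Levels at the LPS-free time and at 6 h were close for most members, as they were for most tested genes. The median log2 difference was 0.19 over the members and 0.01 over all tested genes, and 96 members, or 70.1%, lay within 0.5 either way. The lower and upper quartiles were 0.02 and 0.54 over the members and -0.31 and 0.33 over all tested genes. Closeness was thus not particular to the members. The LPS-free mean was the higher in 107 members and the lower in 30. Of all 9431 tested genes it was the higher in 4795 and the lower in 4635. The members' split rested on replicate 3, where 131 members were higher at the LPS-free time, against 60 in replicate 1 and 67 in replicate 2. Over all tested genes 4959, 4908 and 4272 were higher in replicates 1, 2 and 3. Without 6 h LPS replicate 3 the members' median was -0.007. In 113 members the arrays of these conditions overlapped. In 21, or 15.3%, all LPS-free arrays lay above all 6 h arrays, close to the 15.9% of all tested genes. In 3, or 2.19%, they lay below, against 15.4%. On that side the LPS-free threshold limits how far a member can fall. The difference was above 0 in all 3 pairs for 41 members and below 0 for 3, against 30.6% and 29.5% of all tested genes.

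With the replicate number as a block, 16 members rose and 3 fell from 6 h to the LPS-free time, against 16.0% and 15.7% of all tested genes. Those added were Birc3, Tlr4, Ttk, Chek1, Rictor, Kdm7a, Ktn1 and Mid2. The count of rises was 13 without 6 h LPS replicate 2 and 5 without LPS-free replicate 2, and 7 rose and 5 fell without 6 h LPS replicate 3.

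**Figure D4:**
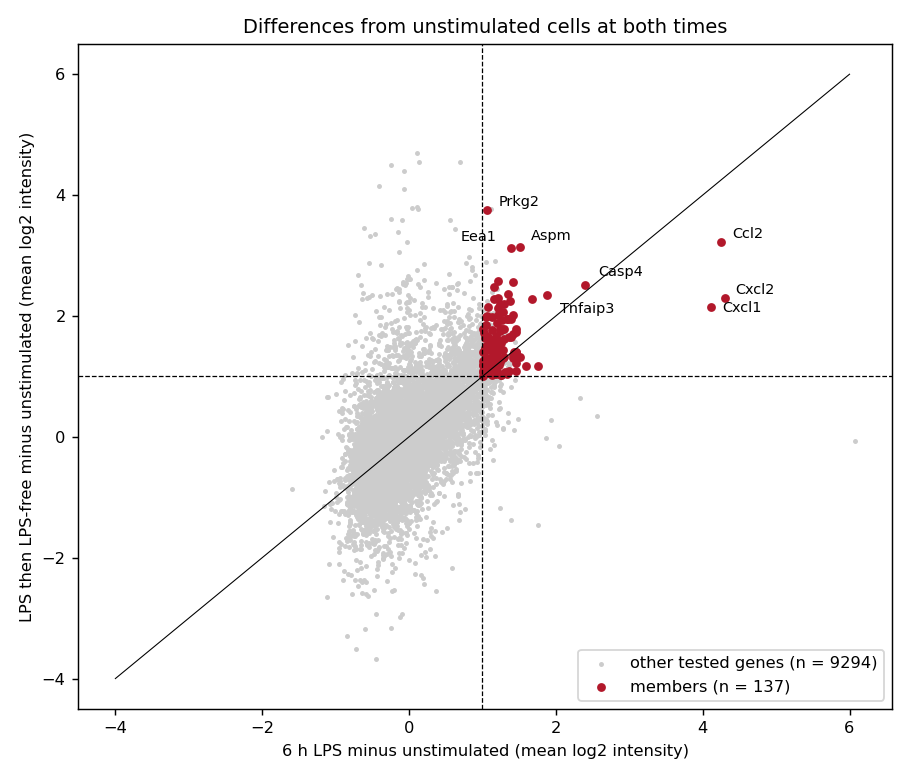
Mean log2 difference from unstimulated cells at 6 h of LPS (horizontal) and at the LPS-free time (vertical) for the 137 members and the other tested genes, with dashed lines at the thresholds of 1 and a solid line of equality. Ccl2, Cxcl2 and Cxcl1 lie far to the right and below the line, Prkg2, Aspm and Eea1 above it, and Casp4 on it.

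The members' pathways held other genes, tested in the same fit. Members among them were chosen on their differences from unstimulated cells, so their calls there repeat the choice. Of 25 listed chemokines 7 were tested. Against unstimulated cells 4 rose at 6 h, the 3 members and Cxcl5, and 4 rose and 1 fell at the LPS-free time, the members and Cxcl10 against Ppbp, beside 0.0636% of all tested genes that rose at 6 h, and 14.0% that rose and 12.2% that fell at the LPS-free time. With the replicate block those shares were 11.6%, 22.7% and 25.9%. With the block 5 chemokines rose at 6 h. From 6 h to the LPS-free time 1 rose and 5 fell, against 7.10% and 6.02% of all tested genes. Cxcl5, a neutrophil chemokine, had mean log2 levels of 5.87, 11.95 and 5.81, so that it was back at its unstimulated level. Cxcl10, which draws T cells, stood at 3.71, 4.17 and 5.40.

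Among 22 tested genes of NF-kappa-B factors, inhibitors and feedback, Nfkbiz alone rose at 6 h, and 10 rose with the block. At the LPS-free time 7 rose and 0 fell by limma (10 rose and 1 fell at an unadjusted p below 0.05), or 13 rose and 1 fell with the block. From 6 h on 2 rose and 1 fell, or 8 and 2 with the block. The shares of all tested genes were 0.0636% risen at 6 h, or 11.6% with the block. At the LPS-free time they were 14.0% risen and 12.2% fallen, or 22.7% and 25.9% with the block. From 6 h on they were 7.10% and 6.02%, or 16.0% and 15.7% with the block. Nfkbia, the inhibitor of NF-kappa-B alpha, had mean log2 levels of 11.57, 12.44 and 12.42. Its difference from unstimulated, 0.87 at 6 h, was below 1 at both times and kept it outside the rule. Birc2, a relative of Birc3, rose by 0.93 log2 from 6 h to the LPS-free time (adjusted p = 0.0133). Nfkbiz fell from 10.86 to 9.18 after 6 h (adjusted p = 0.00228).

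Of 18 tested TLR receptors and signalling genes, Tlr4 and Tab3 rose and Myd88 fell at the LPS-free time against unstimulated cells, and with the block 3 rose and 2 fell. Over all tested genes 14.0% rose and 12.2% fell in that comparison, or 22.7% and 25.9% with the block. In the step from 6 h Tlr2 was the single call, a fall, and with the block 2 rose and 5 fell. For that step the shares of all tested genes were 7.10% and 6.02%, or 16.0% and 15.7% with the block. Tlr2 had mean log2 levels of 3.49, 5.36 and 3.48. In the list of inflammatory mRNA decay 14 genes were tested, of which 4 rose and 3 fell from 6 h to the LPS-free time, or 5 and 4 with the block. Among those that fell were Zc3h12a, the gene of regnase-1, and its relative Zc3h12c, which differed from unstimulated by 1.43 and 1.48 log2 at 6 h and by 0.12 and 0.29 at the LPS-free time.

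Apoptosis and survival genes numbered 29 tested, with 3 members. In the step from 6 h 5 of the 29 rose and 2 fell, or 7 and 8 with the block. Over all tested genes 7.10% rose and 6.02% fell in that step, or 16.0% and 15.7% with the block. Of 19 tested cytokines and receptors 6 rose and 1 fell in that step, or 7 and 2 with the block. Lcn2 was the single member among 5 tested genes of acute-phase and mucosal defence, and none of the 5 passed limma in that step (0 rose and 2 fell, both at an unadjusted p below 0.05 and with the block). No member came from the lists of immediate-early factors, MAPK feedback, EGF family, proteases and matrix, prostaglandins, interferon response, junctions or cell cycle. The cell cycle list did not include the members Aspm, Plk4, Ttk and Chek1. Of its 42 tested genes 17 rose and 1 fell from 6 h on, against 7.10% and 6.02% of all tested genes. With the block 22 rose and 2 fell, against 16.0% and 15.7%.

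Against the 79 genes that met the 6 h limits but did not stay raised, the members had a 6 h median of 1.16 log2 above unstimulated, and those genes 1.10. The difference in replicate 3 was at least 1 for 10.9% of the members and 13.9% of those 79 genes. Cxcl5, Neurl3, Nfkbiz and Cebpd led them. No test of this difference was made, since the rule divides the sets by these values.

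Other probe sets of the members, which the rule did not use, read the same RNA. Of the members 26 had 1 probe set, and 93 had another at the level minimum, 192 such probe sets in all. The differences from unstimulated were above 0 at both times for 186 of the 192, and at least 1 at both times for 76. Only in 21 of the 93 members were all such probe sets at least 1 at both times. Over the 192 probe sets the median log2 differences were 0.97 at 6 h and 1.11 at the LPS-free time. The 6 exceptions read Yes1, Smc6, Xiap, Crebzf and Ncl, the last with 2 such probe sets. Names of 17 members rest on a probe set whose type may share probes with other transcripts.

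Signs of RNA quality and of other cells were read on the same arrays. For beta-actin, the 3′ control probe set minus the 5′ one gave log2 differences of 0.72, 1.02 and 1.16 on the unstimulated arrays, 0.40, 1.35 and 1.36 at 6 h, and 0.66, 1.18 and 1.38 at the LPS-free time. It was lowest in replicate 1 of every condition and did not set 6 h LPS replicate 3 apart from replicate 2, and its part in the results was not tested. Of 13 listed epithelial markers 8 were tested, with Krt8, Krt18, Vil1 and Ezr well above the level minimum and Cdh1, Krt19 and Cdx2 below it. All 7 endothelial and all 6 neural markers on the array lay below log2 4 in every condition mean, as did 10 of 11 stromal markers (Vim was tested) and 14 of 18 macrophage and leukocyte markers, Ptprc among them. The summed level of the leukocyte list was log2 10.5 to 11.4 in unstimulated cells, 9.95 to 11.3 at 6 h and 10.5 to 10.8 at the LPS-free time, with Csf1r, Cd68, Cd14 and Spi1 the tested ones. These did not move alike. Cd68, a lysosomal protein gene, had mean log2 levels of 5.52, 5.11 and 9.67 and rose at the LPS-free time against unstimulated cells (adjusted p = 5.83e-06) and against 6 h (adjusted p = 2.52e-06). Csf1r and Spi1 fell against unstimulated cells by 1.95 and 1.85 log2 (adjusted p = 0.0232 and 0.0181). Among the epithelial markers Krt18 and Krt20 rose at the LPS-free time against unstimulated cells by 0.66 and 0.76 log2, and Epcam rose from a mean log2 level of 3.03, below log2 4, to 5.63 (adjusted p = 0.000154). The part of these changes in the members' values was not tested. In bulk samples, a change in the share of cells and a change in RNA per cell cannot be told apart.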

How the data were processed

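Total RNA of 9 samples was isolated with TRIzol and measured on Affymetrix arrays, per the labels' protocols. The authors deposited one linear intensity per probe set and array. GCRMA made them, per the submitters' processing notes, with no version named in the sources used. That method subtracts a background modelled from probe sequence, which leaves many low values near a floor.

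No pseudocount was added before taking log2 of the deposited values. The platform annotation gave 1 gene symbol to 34945 of 45101 probe sets, several to 932 and none to 9160, besides 64 controls. The probe set of highest mean level stood for each gene, and 51.8% of genes reached log2 4 on 3 arrays and were tested. Where every unstimulated array lay under log2 4, folds are bounds against log2 4. The main test was limma 3.58.1 in R 4.3.3 fitting 1 mean for each condition to the 9 arrays, 6 residual degrees of freedom, eBayes and two-sided tests at an adjusted p of 0.05. The steps were tested on simulated data. The number of arrays limits the precision, and array data give no read depth. The labels call the arrays biological replicates without naming separate cultures, so p-values measure the spread between these samples.

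Blocked values are given for some of the calls that they change. Same-numbered arrays of different conditions correlated at 0.157 to 0.844 in their deviations from the condition means. The numbers were thus taken to pair the arrays. Differently numbered arrays ranged from -0.743 to 0.731. The pairing of replicates 2 and 3 is uncertain. The array of 6 h LPS replicate 3 correlated at 0.157 with unstimulated replicate 3 and at 0.497 with unstimulated replicate 2. That of 6 h LPS replicate 2 correlated at 0.411 with unstimulated replicate 2 and at 0.731 with unstimulated replicate 3. The condition on pairs, the differences by replicate and the blocked values all rest on this pairing.

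The members and the 15 pathway lists were chosen with earlier results of these data known. Named genes were the 10 largest differences at each time, the 6 largest rises and falls from 6 h on, members on the lists, the nearest 3 on either side of each threshold, and members sharing a role with these. Clone-like symbols were left out. Alternatives covered the filter, probe sets, normalization, a floor, eBayes settings, the block and each array left out. Promoters are RefSeq's for GRCm38.p6, matched by symbol.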

Additional observations from a re-analysis of the deposited data

How the results depend on the processing

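The number of members depended on single arrays and on the choice of probe set. Leaving out each array in turn gave 68 to 407 genes by the same rule, with 407 without unstimulated replicate 3, 368 without 6 h LPS replicate 3 and 68 without 6 h LPS replicate 2. It was 69 with all probe sets of a gene averaged (50 of the 137 among them), 65 when every probe set at the level minimum had to pass, 206 with no condition on pairs and 7 at a threshold of 1.5. Added quantile normalization gave 93, a floor at log2 4 gave 132, and replicates 2 and 3 alone gave 99 (76 shared). From 6 h to the LPS-free time, rises among members ranged from 5 to 13 and falls from 2 to 5 with each array left out, and with the replicate block 16 rose. The median difference ranged from -0.007 to 0.41 with each array left out. Casp4, not called, ranged from -0.20 (without 6 h LPS replicate 1) to 0.43 with each array left out, and was -0.10 without LPS-free replicate 2. Over all pathway lists the block changed the number of rises at 6 h from 5 to 54 and of falls from 0 to 25, falls at the LPS-free time from 13 to 29, and falls between these from 19 to 41. The cause of these shifts was not tested. The rises of Cxcl1, Cxcl2 and Ccl2 at 6 h are the selection itself and have no test here. Levels below log2 4 have no order.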

Other observations

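Promoter windows of the 108 members in the RefSeq table had a median of 25 CpG dinucleotides and 61.7% G or C, against 21 and 61.3% over the 7776 tested genes with an entry. The AP-1 motif TGANTCA was found in 7.41% of these members and 5.94% of those tested genes, and the cyclic AMP response element TGACGTCA in 6.48% and 3.79%, both strands counted. Members with the latter were Abce1, Atad2b, Dhx36, Gtpbp10, Heca, Ralgapa1 and 1 clone-named gene. These shares are descriptions and were not tested.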
